A study of Mus musculus with 4 samples.

Results

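The genes described here are Irg1, now named Acod1, which makes itaconate from an intermediate of the tricarboxylic acid (TCA) cycle, and 8 genes of TCA cycle and isocitrate dehydrogenase enzymes: Cs, Idh1, Idh2, Idh3a, Sdha, Sdhb, Fh1 and Mdh2. They were chosen by name, and every non-control probe carrying one of these names was taken, which gave 9 of 37008 genes and 16 of 56605 probes. All 16 probes were well above background on all 4 arrays. RNA came from cultures of RAW264.7, a mouse macrophage cell line, of 4 kinds: cells labelled Mfp2-/- stimulated with LPS (bacterial lipopolysaccharide), wild-type cells stimulated with LPS, untreated Mfp2-/- cells and untreated wild-type cells. Mfp2 is another name of the product of Hsd17b4, a peroxisomal enzyme of fatty acid beta-oxidation. The dose and duration of LPS, the way the knockout was made and the number of clones are not stated in the labels. Each group was measured once, on a one-colour Agilent array labelled with Cy3.

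The TCA cycle oxidises acetyl-CoA in the mitochondrion and passes the electrons to the respiratory chain. Citrate leaves the cycle for lipid synthesis, and its product cis-aconitate can be decarboxylated to itaconate by the enzyme that Irg1 encodes. Itaconate is abundant in macrophages activated by LPS and inhibits succinate dehydrogenase, the enzyme that carries Sdha and Sdhb.

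Values are log2 of the array signal minus the 75th percentile of that array, so they compare one probe between arrays and not one gene with another. With 1 array in each group, a difference between 2 arrays has no replicate check. Beside many of the members' differences stands a technical SD, from the spread of probes printed 10 times on each array at a like signal. It covers error within an array and not between cultures. The genes of the wider lists are given without one, and a difference given without one may lie inside it. A gene was called higher or lower at 2-fold, which is 1 on the log2 scale. The one test the design allows is an additive fit over the 4 arrays, with a term for LPS and one for genotype. Its only residual degree of freedom is the difference between the LPS responses of the 2 genotypes. The fit adds to it 2.06 prior degrees of freedom drawn from all genes fitted. An SE or p from it therefore does not rest on the spread of the gene alone. The comparisons share arrays, so their values are given side by side.

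Between 47.4% and 49.7% of the spots on an array were well above background, none was saturated, and all 4 arrays lay on 1 slide, where position and group cannot be told apart. The Hsd17b4 probe gave a signal of 1217 in knockout cells with LPS, against 2915 in wild-type cells with LPS, and 2545 in untreated knockout cells, against 4482 in untreated wild-type cells. After scaling, the knockout level was 44.4% of wild type with LPS and 55.0% untreated, so the transcript was lower but not lost. Whether its probe lies in the altered part of the gene is not stated in the labels. All 8 macrophage markers (Ptprc, Itgam, Adgre1, Cd68, Csf1r, Spi1, Lyz2 and Cd14) were above background on every array. Their summed level on the linear scale was between 1040 and 1214 times the 75th percentile. The T cell list summed to between 2.02 and 2.25, with Cd3e and Cd4 above background on every array and Cd3g and Cd8a on none. The B cell, fibroblast, epithelial and endothelial lists had 0 or 1 marker above background on any array.

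The promoters of Acod1 and Sdha are printed because the first belongs to the member with the large LPS response and the second holds the most matches to a motif of genes for mitochondrial proteins. Each is the 250 bases before the gene's start in RefSeq on GRCm38.p6, a different build from the probe coordinates, read 5′ to 3′ on the gene's strand, at chr14:103046762-103047011 on the plus strand for Acod1 and at chr13:74350241-74350490 on the minus strand for Sdha. Capitals mark motif matches.
Acod1: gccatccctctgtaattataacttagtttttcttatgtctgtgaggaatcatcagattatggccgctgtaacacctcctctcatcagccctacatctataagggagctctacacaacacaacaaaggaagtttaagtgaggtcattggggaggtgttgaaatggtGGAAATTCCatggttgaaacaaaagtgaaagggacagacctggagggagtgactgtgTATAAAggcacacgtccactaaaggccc
Sdha: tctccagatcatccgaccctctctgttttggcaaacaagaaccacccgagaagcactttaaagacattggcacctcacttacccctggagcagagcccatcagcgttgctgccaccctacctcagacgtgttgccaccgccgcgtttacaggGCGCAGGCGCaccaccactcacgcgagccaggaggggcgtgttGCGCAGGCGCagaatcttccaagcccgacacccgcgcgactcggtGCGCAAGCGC

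Both strands were searched. In Acod1 the capitals are GGAANTTCC, a 9-letter form of the NF-kB motif, 85 to 77 bases before the start, and the TATA box TATAAA, 28 to 23 bases before it. These 2 motifs were added after this promoter had been read, and 0.813% and 12.4% of 32851 mouse promoters of the same length hold them. In Sdha the capitals are the motif of nuclear respiratory factor 1 (NRF1), GCGCA and GCGC around 1 free base, at 98 to 89, 55 to 46 and 10 to 1 bases before the start, and 3.74% of promoters hold it. Promoters were searched for 8 of the 9 members, all but Idh3a. Of these 9 promoters, 2 of them for Idh1, the 10-letter NF-kB motif, GGG and TTTCC around 2 free bases, matched in Sdhb alone (1.41% of all promoters) and the cyclic AMP response element TGACGTCA in Mdh2 alone (1.55%). None of the 9 held the interferon response element, GAAA and GAAA around 2 free bases (2.98%), the AP-1 motif TGANTCA (6.75%), the PU.1 core GAGGAAG (10.6%) or the oestrogen-related receptor motif CAAGGTCA (1.33%). The 9-letter form can lie inside the 10-letter NF-kB motif, but no 2 matches overlapped in these 9 promoters. A match is only a match of letters.

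4 of the 60-base probes are printed as well, in mm9 coordinates, because the results on Idh1 turn on the disagreement of its 2 probes, and Idh2 and Sdhb on the agreement of a second probe with the first. The Idh1 probe that represents the gene starts at base 1358 of its transcript record and lies at chr1:65206035-65206094 on the minus strand, and the other Idh1 probe starts at base 229 and lies at chr1:65221829-65221888 on the minus strand. The Idh2 probe lies at chr7:87242779-87242838 on the minus strand. The Sdhb probe is split over chr4:140522514-140527081 on the plus strand, a span of 4568 bases, so it crosses a splice junction.
Idh1, A_51_P132978: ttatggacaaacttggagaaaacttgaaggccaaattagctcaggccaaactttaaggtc
Idh1, A_65_P01154: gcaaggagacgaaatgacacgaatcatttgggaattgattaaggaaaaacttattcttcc
Idh2, A_51_P331507: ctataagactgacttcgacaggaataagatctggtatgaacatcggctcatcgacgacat
Sdhb, A_51_P234853: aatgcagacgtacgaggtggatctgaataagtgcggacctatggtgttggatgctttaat

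The first question was what LPS did to these transcripts in each genotype. Irg1 rose in the additive fit and was 116-fold higher with LPS in knockout and 95.8-fold higher in wild-type cells. In RNA of a whole culture, the share of cells that responded and the RNA in each cell cannot be told apart. Idh2, the mitochondrial NADP-dependent isocitrate dehydrogenase, fell. Cs, Idh1, Idh3a, Sdha, Sdhb and Fh1 had lower representative values with LPS in both genotypes without passing the test, and Mdh2 was nearly level. In the 2-fold calls for knockout cells 1 of 9 members was higher (Irg1) and 1 lower (Idh1), where 11.0% of all 18391 genes measured were called higher and 12.4% lower. In wild-type cells 1 of 9 was higher (Irg1) and 0 were lower, where 9.69% of 18202 genes were called higher and 8.56% lower.

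**Figure D1:**
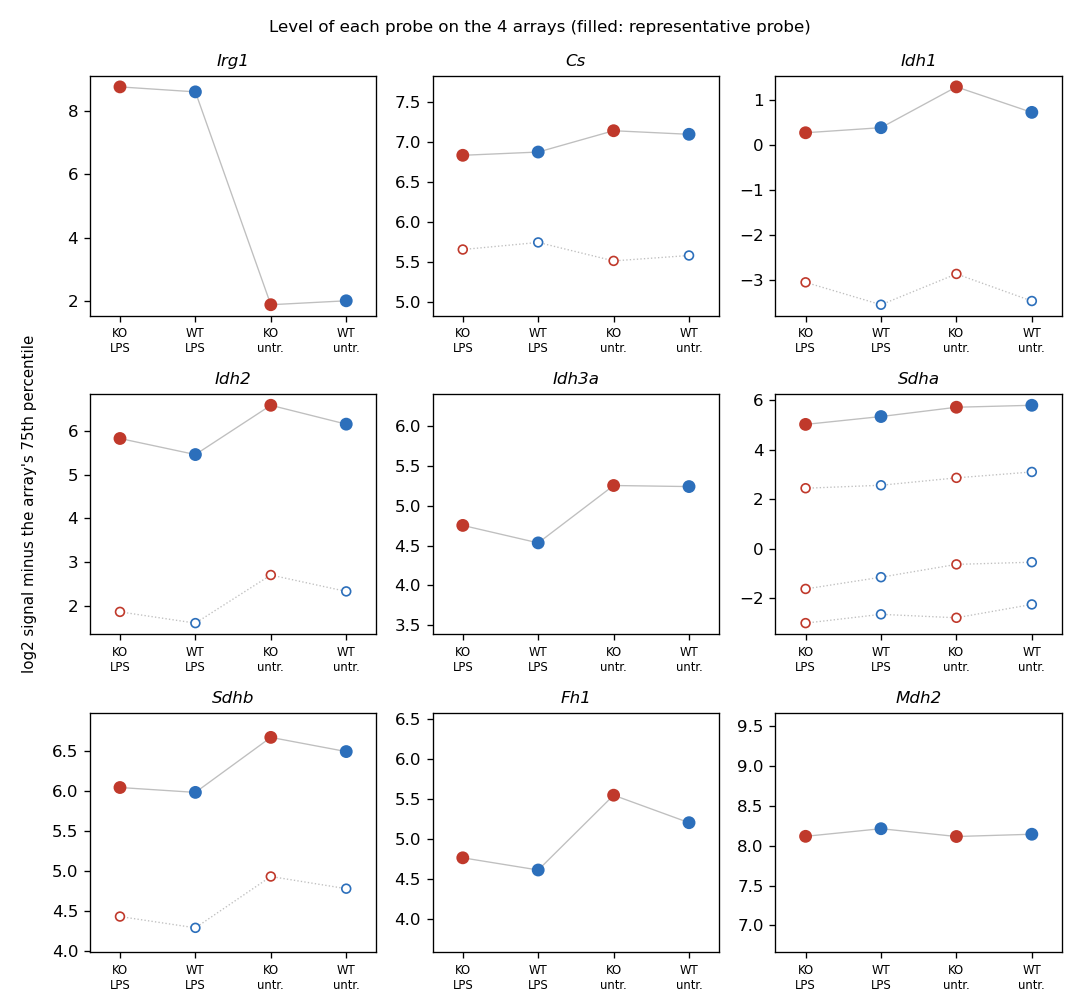
Level of each probe on the 4 arrays, as log2 signal minus the array's 75th percentile, in 1 panel for each gene with its own vertical axis. Points are single arrays (red knockout, blue wild type, with LPS left of untreated), filled for the representative probe and open for a gene's other probes. Irg1 lies at 8.76 and 8.60 with LPS, against 1.90 and 2.02 untreated, and Mdh2 between 8.11 and 8.21 on all 4 arrays.

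Irg1 has 1 probe on the array, at chr14:103455171-103455231 in mm9. Its raw signal was 131394 with LPS, against 1376 untreated, in knockout cells, and 125285 with LPS, against 1451 untreated, in wild-type cells. On the scaled log2 axis the levels were 8.76 with LPS and 1.90 untreated in knockout cells, and 8.60 with LPS and 2.02 untreated in wild-type cells. The LPS arrays of both genotypes lay far above both untreated arrays, and untreated cells were themselves well above background.

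The LPS difference of Irg1 was 6.86 in knockout cells (116-fold, technical SD 0.12) and 6.58 in wild-type cells (95.8-fold, technical SD 0.08). A larger increase was measured for 33 of 18391 genes in knockout cells and for 38 of 18202 in wild-type cells. In the additive fit the LPS term was 6.72 ± 0.14 (SE, limma, adjusted p = 0.0240 by Benjamini-Hochberg over 17370 genes). With LPS the knockout array was 0.16 above wild type (technical SD 0.08), and untreated it was 0.12 below (technical SD 0.12).

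The 5 genes whose pattern over the 4 arrays lay nearest to Irg1 were taken from 15525 genes above background on all arrays, by the Euclidean distance between the 4 values of each gene centred on their own mean. The nearest pair were features on chromosome 16 that the array names only by position. Their probes lay at chr16:84708738-84708797 (distance 0.21) and chr16:84705907-84705966 (distance 0.42). The named interval of the first lies inside that of the second, so the pair share a locus. Next came Cd40, a co-stimulatory receptor (0.63), Tnfrsf1b, a receptor for tumour necrosis factor (0.85), and BC057675 (0.96). The distances describe 4 arrays and carry no test. The LPS difference of Cd40 was 7.40 in knockout and 6.36 in wild-type cells.

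Cs encodes citrate synthase, which joins acetyl-CoA to oxaloacetate. Its representative probe read 6.83 with LPS, against 7.14 untreated, in knockout cells and 6.88 with LPS, against 7.10 untreated, in wild-type cells. The second Cs probe read 5.66 with LPS, against 5.51 untreated, in knockout cells and 5.74 with LPS, against 5.58 untreated, in wild-type cells. The 2 probes of Cs therefore differed in sign: the first gave -0.31 in knockout and -0.22 in wild-type cells (technical SD 0.14 and 0.09), and the second 0.14 and 0.16 (technical SD 0.17 and 0.09). No direction with LPS is given for Cs, whose additive LPS term was -0.26 ± 0.12 (SE, limma, adjusted p = 0.199).

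The isocitrate dehydrogenases convert isocitrate to 2-oxoglutarate, in the mitochondrial matrix with NADP (Idh2) or NAD (the complex whose catalytic subunit is Idh3a), or in the cytosol and peroxisome with NADP (Idh1). The representative Idh2 probe read 5.82 with LPS, against 6.58 untreated, in knockout cells and 5.46 with LPS, against 6.15 untreated, in wild-type cells. The Idh2 probe printed above read 1.86 with LPS, against 2.70 untreated, in knockout cells and 1.60 with LPS, against 2.33 untreated, in wild-type cells. On either probe both LPS arrays lay below both untreated arrays.

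By these probes Idh2 was 1.69-fold and 1.79-fold lower with LPS in knockout cells, and 1.62-fold and 1.65-fold lower in wild-type cells. The additive LPS term was -0.73 ± 0.12 (SE, limma, adjusted p = 0.0447), close to the threshold of 0.05. Its adjusted p lay between 0.00657 and 0.136 over the alternative settings, and the highest came with no filter on dim probes, where it did not pass.

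Idh3a read 4.75 with LPS, against 5.25 untreated, in knockout cells and 4.53 with LPS, against 5.24 untreated, in wild-type cells, on 1 probe. Both LPS arrays lay below both untreated arrays, by 1.41-fold in knockout and 1.63-fold in wild-type cells. Among the 8 enzymes Idh3a was the only one with a larger difference in size in wild-type than in knockout cells on the representative probe, apart from Mdh2, whose differences were near 0. Its additive LPS term was -0.60 ± 0.13 (SE, limma, adjusted p = 0.0662).

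Idh1 was the member whose LPS difference depended most on genotype. Its representative probe read 0.27 with LPS, against 1.28 untreated, in knockout cells and 0.38 with LPS, against 0.72 untreated, in wild-type cells. The untreated knockout array stood highest and the 2 LPS arrays lowest and close together. With LPS the value was lower by 2.02-fold in knockout cells (-1.02, technical SD 0.14), just past the 2-fold threshold, and by 1.26-fold in wild-type cells (-0.34, technical SD 0.13).

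The other Idh1 probe, near the start of the transcript, was dim, with raw signals of 36.8 with LPS and 51.0 untreated in knockout cells and 27.7 with LPS and 32.6 untreated in wild-type cells. Its LPS differences were -0.19 in knockout and -0.08 in wild-type cells, inside its technical SDs of 0.48 and 0.62. The scaled levels of this probe were -3.05 with LPS and -2.86 untreated in knockout cells and -3.54 with LPS and -3.46 untreated in wild-type cells. The 2-fold call for Idh1 in knockout cells therefore rests on 1 probe. It was lost with normexp background correction, with median centring and with the mean of both probes. The additive LPS term was -0.68 ± 0.23 (SE, limma, adjusted p = 0.123).

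**Figure D2:**
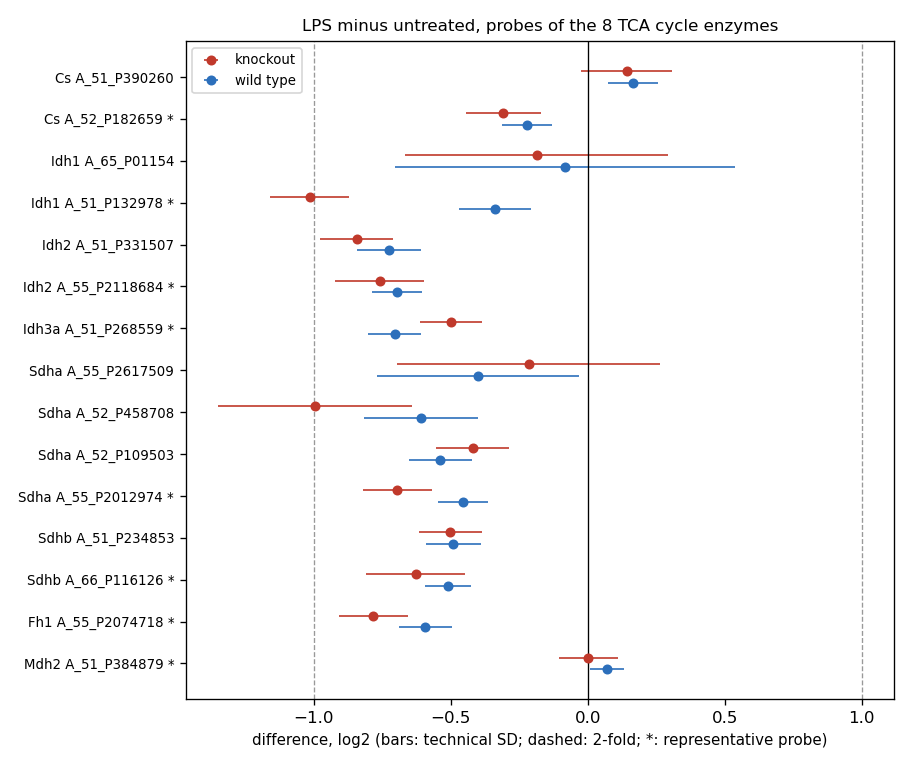
LPS minus untreated on the log2 scale for the 15 probes of the 8 enzymes, in knockout (red) and wild-type cells (blue). Bars are the technical SD, dashed lines mark 2-fold and asterisks the representative probes. Most points lie between -1 and 0 in both genotypes, the second Cs probe lies above 0, Mdh2 lies at 0, and only Idh1 in knockout cells passes -1.

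Succinate dehydrogenase oxidises succinate to fumarate and is also complex II of the respiratory chain. Sdha encodes its flavoprotein subunit, with 4 probes, and Sdhb its iron-sulfur subunit, with 2. The representative Sdha probe read 5.03 with LPS, against 5.72 untreated, in knockout cells and 5.34 with LPS, against 5.80 untreated, in wild-type cells. Over its 4 probes the LPS difference lay between -0.99 and -0.22 in knockout cells and between -0.61 and -0.40 in wild-type cells. All 4 were below 0 in both genotypes. The value nearest to 2-fold, -0.99 in knockout cells, came from a probe made from a cDNA clone record, with a technical SD of 0.35. By its representative probe Sdha had an additive LPS term of -0.58 ± 0.14 (SE, limma, adjusted p = 0.0741).

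The representative Sdhb probe read 6.04 with LPS, against 6.67 untreated, in knockout cells and 5.98 with LPS, against 6.49 untreated, in wild-type cells. The junction-crossing probe printed above read 4.43 with LPS, against 4.93 untreated, in knockout cells and 4.29 with LPS, against 4.78 untreated, in wild-type cells. Both LPS arrays lay below both untreated arrays on either probe. The LPS differences were -0.63 and -0.50 in knockout cells and -0.51 and -0.49 in wild-type cells, with technical SDs between 0.08 and 0.18. The fit over 4 arrays gave Sdhb an LPS term of -0.57 ± 0.12 (SE, limma, adjusted p = 0.0650).

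Fh1 encodes fumarate hydratase, which turns fumarate into malate. It read 4.76 with LPS, against 5.54 untreated, in knockout cells and 4.61 with LPS, against 5.20 untreated, in wild-type cells, on 1 probe. Both LPS arrays lay below both untreated arrays, by 1.72-fold in knockout and 1.51-fold in wild-type cells. The additive LPS term was -0.69 ± 0.13 (SE, limma, adjusted p = 0.0536).

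Mdh2 encodes the mitochondrial malate dehydrogenase, which regenerates oxaloacetate. It read 8.12 with LPS, against 8.11 untreated, in knockout cells and 8.21 with LPS, against 8.14 untreated, in wild-type cells. The LPS difference was 0.00 in knockout cells (technical SD 0.11) and 0.07 in wild-type cells (technical SD 0.06). For Mdh2 the additive LPS term was 0.04 ± 0.12 (SE, limma, adjusted p = 0.832).

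The 8 enzymes without Irg1 had a median LPS difference of -0.66 in knockout cells, where the median of all genes was -0.01, and 7 of 8 were below 0, where 50.3% of all genes were. In wild-type cells their median was -0.48, where that of all genes was 0.01, and 7 of 8 were below 0, where 49.2% of all genes were. These values are from the representative probes, and the 7 include Cs, whose second probe lay above 0 in both genotypes. Centring on spike-in probes moved the median of 15526 genes from 0.03 to -0.20 in knockout cells and from 0.02 to -0.20 in wild-type cells. Under it the median of the 8 enzymes was -0.89 in knockout and -0.70 in wild-type cells. This centring shifts every gene of an array alike, so it cannot change where the enzymes stand relative to all genes. In the additive fit 1 of 9 members rose with LPS and 1 fell, where 11.2% of 17370 genes rose and 11.3% fell.

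The second question was whether the genotypes differed in the same condition. In the 2-fold calls 0 of 9 members differed between knockout and wild-type cells, untreated or with LPS. Of all genes, 1.86% were called higher and 4.37% lower in knockout cells with LPS, and 3.06% higher and 3.91% lower in untreated knockout cells. The genotype term of the additive fit passed for 0 of 17370 genes (0.0% in either direction, limma), while 1710 had an unadjusted p under 0.05, and with a trended prior 23 genes were higher and 62 lower.

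Idh2 was higher in knockout cells on both of its probes in both conditions. The difference was 0.37 and 0.26 with LPS (technical SD 0.16 and 0.13) and 0.43 and 0.37 untreated (technical SD 0.10 and 0.12), which is between 1.20-fold and 1.35-fold. Its genotype term was 0.40 ± 0.12 (SE, limma, adjusted p = 0.494, unadjusted p = 0.0449). Sdha was lower in knockout cells on all 4 probes in both conditions, between -0.48 and -0.12 with LPS and between -0.54 and -0.08 untreated. The lowest values, -0.48 and -0.54, came from dim probes with technical SDs of 0.36 and 0.35, and several of the others lay inside their technical SD. On the representative probe Sdha was at -0.32 with LPS (technical SD 0.11) and at -0.08 untreated, inside its technical SD of 0.11. Its genotype term was -0.20 (limma, adjusted p between 0.508 and 0.882 over the alternative settings).

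Fh1 was 0.15 higher in knockout cells with LPS (technical SD 0.12) and 0.34 higher untreated (technical SD 0.11). On its representative probe Idh1 was 0.11 lower in knockout cells with LPS (technical SD 0.15) and 0.56 higher untreated (technical SD 0.13). On its dim probe it was 0.50 higher with LPS and 0.60 higher untreated, with technical SDs of 0.55 and 0.56. The 2 probes shared a direction only in untreated cells, and with LPS the mean of both turned the sign, to 0.19 higher. Sdhb was higher in knockout cells by 0.06 and 0.14 with LPS (technical SD 0.16 and 0.12) and by 0.18 and 0.15 untreated (technical SD 0.12 and 0.09). Cs, Idh3a and Mdh2 lay between -0.10 and 0.22 in both conditions on every probe.

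**Figure D3:**
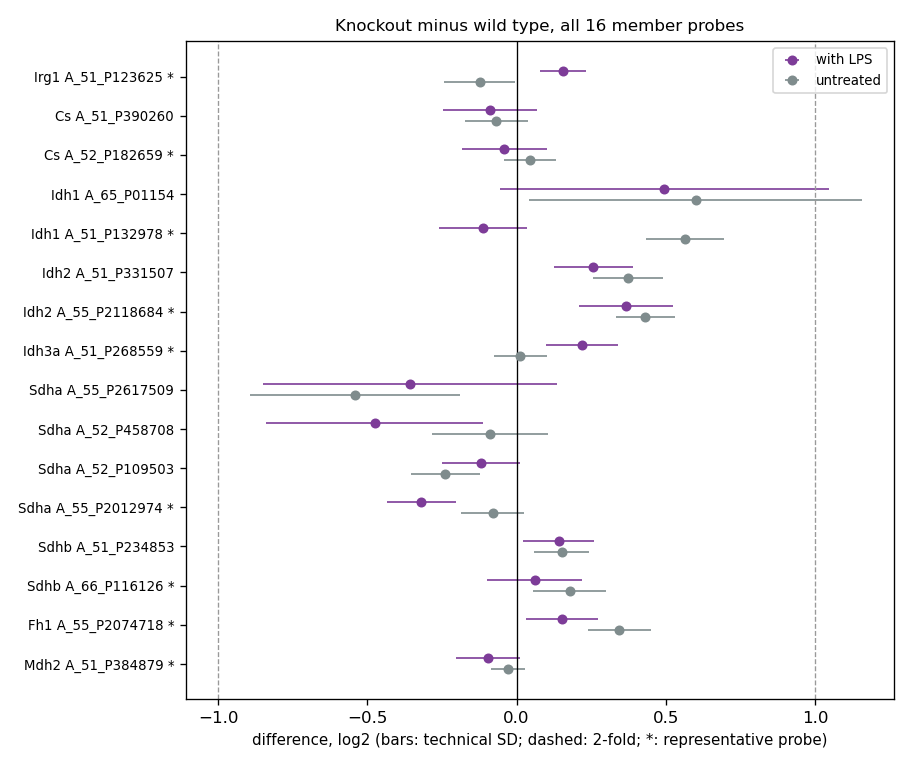
Knockout minus wild type on the log2 scale for all 16 member probes, with LPS (purple) and untreated (grey). Bars are the technical SD, dashed lines mark 2-fold and asterisks the representative probes. No point reaches 2-fold. The Idh2 probes lie above 0 and the Sdha probes below 0 in both conditions, and Idh1 on its representative probe lies at -0.11 with LPS, against 0.56 untreated.

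The third question was whether the LPS response differed between the genotypes. Of the members, 0 of 9 reached 1 on the log2 scale, where 1.69% of 15526 genes were called with a response higher in knockout cells and 2.92% with one lower. The largest difference was that of Idh1, at -0.68 with a technical SD of 0.19, and 14521 of 15526 genes had a higher value. On the dim Idh1 probe it was -0.10 with a technical SD of 0.78. On the representative probes Irg1 followed at 0.28 (technical SD 0.14), Sdha at -0.24 (technical SD 0.16), Idh3a at 0.21 (technical SD 0.15) and Fh1 at -0.19 (technical SD 0.16). The 4 Sdha probes differed in sign, between -0.39 and 0.18, with 2 above 0 and 2 below, so no direction is given for Sdha. Cs, Idh2, Sdhb and Mdh2 lay between -0.12 and -0.06 on their representative probes. With 1 array in each group these differences have no test.

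The other genes of the cycle were read from 6 lists of 68 genes, each gene by 1 representative probe. The 13 other TCA cycle subunits, among them the 2-oxoglutarate dehydrogenase complex, succinyl-CoA ligases and the membrane anchors of succinate dehydrogenase, gave 0 calls in any comparison and 0 passed the additive fit. Of all genes, 11.0% were called higher and 12.4% lower with LPS in knockout cells, and 9.69% and 8.56% in wild-type cells. The additive LPS term rose for 11.2% and fell for 11.3%. Their median LPS difference was -0.15 in knockout and -0.16 in wild-type cells, and 11 of 13 were below 0 in each. Mdh1, the cytosolic malate dehydrogenase, was at -0.78 in knockout and -0.59 in wild-type cells, and Sdhd, an anchor subunit of succinate dehydrogenase, at -0.73 and -0.54. Dld, the dihydrolipoamide dehydrogenase shared by several complexes, was at 0.76 and 0.31.

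**Figure D4:**
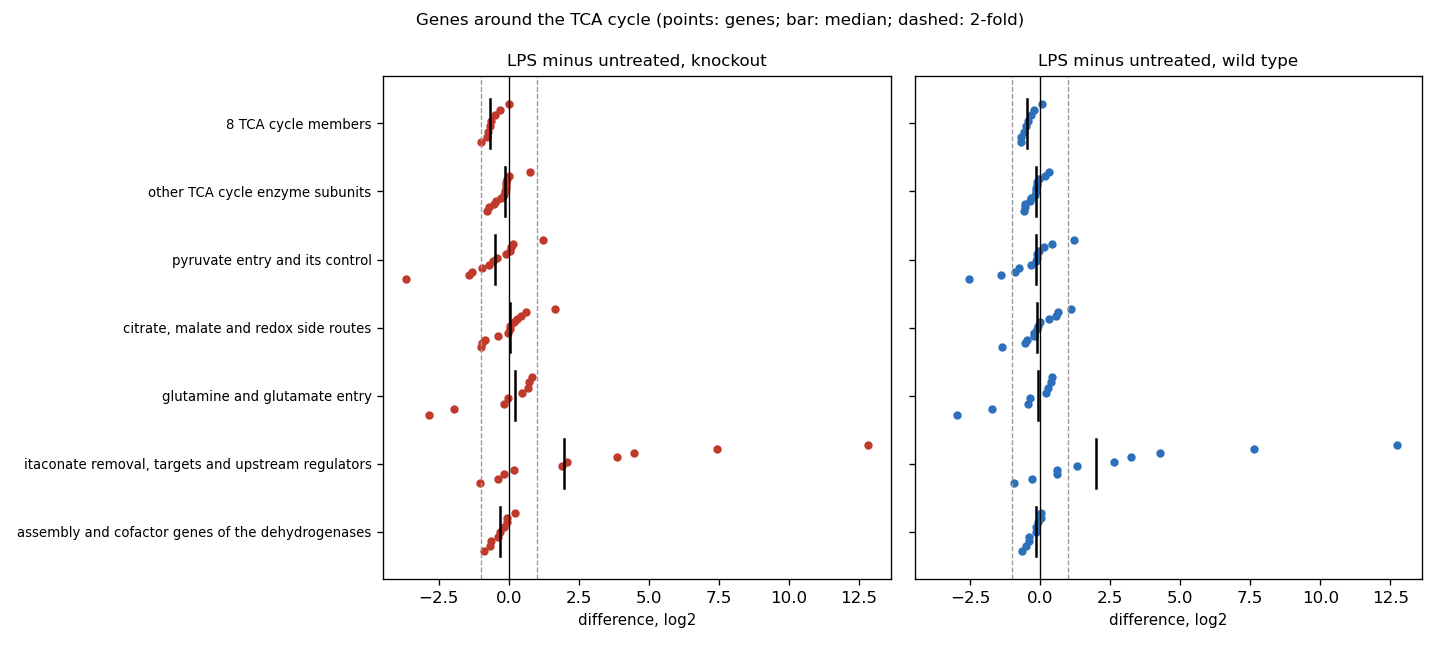
LPS minus untreated on the log2 scale for the 8 TCA cycle members and the genes of the 6 lists, in knockout (left, red) and wild-type cells (right, blue). Each point is a gene that 1 or both of its arrays showed above background, black bars are medians and dashed lines mark 2-fold. The 8 members have medians of -0.66 and -0.48, the other subunits lie within 2-fold, and the list with upstream regulators of Irg1 has medians of 1.98 and 1.97.

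Of the 13 genes for the entry of pyruvate and its control, 12 were measured. In knockout cells LPS gave 1 call higher and 3 lower, with a median of -0.49, where 11.0% of all genes were called higher and 12.4% lower. In wild-type cells it gave 1 higher and 1 lower, with a median of -0.14, where the shares of all genes were 9.69% and 8.56%. In the additive fit Pdp2 rose and Pcx, Pdhx, Pdk1 and Pdk2 fell, of 12 tested, where 11.2% of all genes rose and 11.3% fell. Pdk1, a kinase that switches off pyruvate dehydrogenase, was at -1.44 in knockout and -1.42 in wild-type cells (additive term -1.43, adjusted p = 0.0268, limma). Of its 3 other probes above background on all 4 arrays, 2 gave -1.70 and -1.38 in knockout cells and -1.37 and -1.42 in wild-type cells, but the third gave 0.19 in knockout and -0.10 in wild-type cells. Pdk2, another such kinase, was below background on both LPS arrays. Its decrease was at least 2.55-fold in knockout cells, and in wild-type cells the bound was under 2-fold. Untreated, it was 1.08 higher in knockout than in wild-type cells, a call. That call rests on 1 probe with dim signals, 61.3 in knockout and 28.1 in wild-type cells. Pcx, pyruvate carboxylase, had an additive term of -0.74 (adjusted p = 0.0440, limma). Pdhx, the binding protein of the complex, had one of -0.93 (adjusted p = 0.0345, limma), but its second probe gave 0.15 in knockout and -0.09 in wild-type cells. Pdp2, a phosphatase that reactivates the complex, had one of 1.20 (adjusted p = 0.0291, limma), but its second probe gave -0.24 and -0.13.

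Pdp1, another phosphatase of pyruvate dehydrogenase, differed between genotypes with LPS. Its signal with LPS was 82.3 in knockout cells, against 226 in wild-type cells, and untreated it was 249 in knockout cells, against 272 in wild-type cells. The knockout array with LPS stood apart from the other 3. The knockout level with LPS was 2.58-fold lower than wild type, and the difference of the LPS responses was -1.19, a call. On the second Pdp1 probe the knockout level with LPS was also lower, by -1.62.

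Among the 12 measured of 14 genes for citrate, malate and redox side routes, LPS gave 1 call higher and 0 lower in knockout cells and 1 higher and 1 lower in wild-type cells. Of all genes, 11.0% were called higher and 12.4% lower in knockout cells, and 9.69% and 8.56% in wild-type cells. Pck2, the mitochondrial phosphoenolpyruvate carboxykinase, rose in the additive fit (1.37, adjusted p = 0.0382, limma), and Slc25a10, the mitochondrial dicarboxylate carrier, fell (-1.19, adjusted p = 0.0362, limma). With LPS the knockout array was above wild type for Pck2 by 1.40 and for Me1, the cytosolic malic enzyme, by 1.06. The second probes gave 1.52 and 1.18. Untreated, the knockout array was above wild type as well, by 0.84 for Pck2 and 0.56 for Me1, and by 0.63 and 1.15 on the second probes. Of the 8 measured genes for glutamine and glutamate entry, 0 were called higher and 2 lower with LPS in each genotype, beside the same shares of all genes. Gls2, a glutaminase, fell by 1.84 in the additive fit (adjusted p = 0.0254, limma). Its signals with LPS were dim, 29.3 in knockout and 29.5 in wild-type cells, against 138 and 108 untreated, so the size of the decrease is imprecise. Aldh5a1, succinate semialdehyde dehydrogenase, fell as well (adjusted p = 0.0240, limma) but was below background on both LPS arrays, with a decrease of at least 2.03-fold in knockout and at least 2.01-fold in wild-type cells.

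The list of genes for itaconate removal, its targets and regulators upstream of Irg1 had 10 members. LPS gave 6 calls higher and 1 lower in knockout cells, where 11.0% of all genes were called higher and 12.4% lower. In wild-type cells it gave 6 higher and 0 lower, where the shares were 9.69% and 8.56%. Atf3, Il1b, Irf8, Nfkbiz and Nos2 were among those that rose in the additive fit. Nos2, the inducible nitric oxide synthase, was at 7.44 in knockout and 7.64 in wild-type cells. Il1b, a cytokine, was below background untreated and was at least 3806-fold higher with LPS in knockout and at least 3631-fold higher in wild-type cells. Irf8, a transcription factor of macrophages, was at 1.89 in knockout and 1.30 in wild-type cells, and its second probe at 0.79 and 0.48.

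Atf3, a stress-response transcription factor, had an LPS difference of 3.87 in knockout and 2.64 in wild-type cells, and the difference of the responses was called higher in knockout cells. Nfkbiz, an inducible co-regulator of NF-kB, was above wild type in knockout cells by 1.20 with LPS and by 1.03 untreated. Clybl, which takes part in the breakdown of itaconate, fell (adjusted p = 0.0327, limma), at -1.04 in knockout and -0.96 in wild-type cells. Of the 9 genes for assembly and cofactors of the dehydrogenases, 0 were called in any comparison. With LPS, 11.0% of all genes were called higher and 12.4% lower in knockout cells, and 9.69% and 8.56% in wild-type cells. Lipt2, a gene for the lipoate cofactor, fell in the additive fit (-0.77, limma), with an adjusted p of 0.04996.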

How the data were processed

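Total RNA of 4 RAW264.7 cultures, 1 for each group, was labelled with Cy3. The authors deposited linear intensity for every spot; per the file headers it was made with Agilent Feature Extraction 10.7.1.1, and the submitters' processing notes name 9.5.1.1. Background subtraction and detrending were done within an array, per the file headers. The deposited flags, a unit of the type other, mark spots above background, saturated or outlying. The deposited series table holds intensity, between-array normalization not stated, and was used as an alternative.

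Outlier and control spots were left out, spots of a probe averaged, and log2 taken minus each array's 75th percentile over probes, which was 303 to 370. Probes keep the mm9 positions that the files give. Of 56605 probes, 32994 were named through their accession, 520 through an older symbol, and 23091 kept the file's name. A gene was represented by the probe above background on most arrays, then the brightest. Where 1 array of a comparison was dim, the call used a bound, which gave the dim array the lowest signal above background, or its own where that was higher. The technical SD is the root mean square spot SD of the 8 nearest in signal of 300 probes printed 10 times and of the spike-in controls. The additive fit used limma 3.58.1 in R 4.3.3 on genes above background on at least 2 arrays, checked on simulated data; other steps used Python 3.11.15, numpy 2.4.6, pandas 2.3.3 and matplotlib 3.10.9. Precision is limited by the number of arrays. All members with all their probes are named, and from the lists the genes called or with the 3 largest differences in a comparison. Some genes that met this rule are not reported here. The members, lists and rules were chosen with earlier results of these data known. Alternatives were quantile normalization, normexp with an offset of 50, centring on the median or on 7 spike-in probes, the series table, the percentile over spots (added after seeing the data), the mean of a gene's probes, stricter and no filters on dim probes, 1.5-fold and 4-fold thresholds and a trended prior.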

Additional observations from a re-analysis of the deposited data

Results flagged for a closer look

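For 3 members the knockout array lay on one side of wild type with LPS and on the other side untreated, on the representative probe. With 1 array in each group the difference between the conditions was not tested. Irg1 was 0.16 above wild type with LPS and 0.12 below it untreated (-0.12), a difference of 0.28 with a technical SD of 0.14. Cs was at -0.04 with LPS and 0.04 untreated, a difference of -0.09 inside its technical SD of 0.17. Idh1 was at -0.11 with LPS and 0.56 untreated, a difference of -0.68 with a technical SD of 0.19. Its dim second probe gave -0.10 with a technical SD of 0.78, too wide to tell either way.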

How the results depend on the processing

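No paired analysis was possible because each group has 1 array, and for the same reason no array could be left out. Among the members the direction reversed in no called result. For the genes of the lists only counts of calls were followed, not the direction of each called gene. In 129 of 144 comparisons of a main count of members with its value under an alternative the count stayed within 1.5 times. These main counts were 0 or 1, and 0 beside 0 was taken as the same, so much of this agreement is trivial. Among the other counts and differences compared, 220 moved and 1060 did not. Another 23 passed the threshold of the additive fit only under the alternative, and 1 only in the main setting. The count of members lower with LPS in knockout cells, 1 in the main setting, was 0 with normexp, with median centring, with the mean of a gene's probes and at 4-fold, 2 with spike-in centring and 5 at 1.5-fold. In wild-type cells it was 0, and 3 at 1.5-fold. The count of members with a lower LPS response in knockout cells was 0, and 1 at 1.5-fold. In the additive fit the count of members that fell with LPS was 1, and 5 with normexp, spike-in centring or genes above background on all 4 arrays, 4 with quantile normalization or the series table, 6 with a trended prior and 0 with no filter on dim probes. The cause was not tested. The LPS difference of Irg1 lay between 6.63 and 6.89 in knockout cells and between 6.37 and 6.61 in wild-type cells over the alternatives, and its additive adjusted p between 0.000680 and 0.0287. The genotype difference of Idh1 with LPS lay between -0.17 and 0.19. Over the alternatives the count of all genes higher with LPS lay between 639 and 3723 in knockout cells (main 2028) and between 604 and 3224 in wild-type cells (main 1764), and of genes lower between 479 and 4094 (main 2283) and between 273 and 3183 (main 1558). With LPS the knockout was higher than wild type for 37 to 1383 genes (main 329) and lower for 174 to 2210 (main 775), and untreated for 100 to 1874 (main 564) and 212 to 2234 (main 719). The difference of the responses gave 39 to 2729 genes higher (main 262) and 35 to 3058 lower (main 453). The additive LPS term gave 744 to 3255 higher (main 1954) and 546 to 3237 lower (main 1962). The 4-fold threshold, or no filter in the additive fit, gave the lowest of these counts.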
